A study of Mus musculus with 5 samples.

Results

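MYC is a transcription factor that works as a pair with MAX, and the MAX partners of the MXD family, MNT and MGA compete with it. Of 23337 genes listed per library, the 8 described here were chosen by symbol: Myc, its obligate partner Max, the antagonists Mxd1, Mxd3, Mxd4, Mnt and Mga, and Mlx, a MAX-like protein that pairs with some of the same antagonists. They were measured by RNA sequencing of mouse CD8+ T cells sorted from tumors, in 3 libraries of the Control IgG group and 2 of the anti-PD-L1 group. All 8 passed the filter on low counts, and no member passed an adjusted p of 0.05.

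In both groups the cells came from OT-I mice of strain C57BL/6J CD45.1 aged 6 to 12 weeks, a transgenic line in which T cells carry 1 receptor, specific for ovalbumin. Their CD8+ T cells were stimulated in culture through CD3 and CD28, kept in a low dose of interleukin-2, and transferred into hosts bearing the ovalbumin-expressing melanoma B16-OVA. Hosts in one group received anti-PD-L1 antibody and those in the other a rat IgG2b against KLH as the control, with doses of 200 µg given 3 and 6 days after the T cells, and the donor cells were sorted as live CD8+ CD45.1+ cells at day 8 or at a tumor diameter of 1.2 cm. Each library pooled cells of several mice, and the age of the hosts is not given in the labels. The comparison asks how blocking PD-L1, a ligand of the inhibitory receptor PD-1, is reflected in the transcripts of these T cells.

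MYC and MAX bind the DNA sequence CACGTG, the canonical E-box, through a basic helix-loop-helix and leucine zipper fold. The MYC-MAX pair recruits histone acetyltransferases and raises transcription of genes for ribosome assembly, nucleotide and polyamine synthesis, nutrient uptake and cell division. MXD-MAX and MNT-MAX pairs bind the same sequence and bring the SIN3 corepressor with histone deacetylases. In CD8+ T cells, stimulation of the antigen receptor induces Myc, which drives the growth and metabolic switch before division, while MXD1 is known from cells that leave the cycle and differentiate.

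The canonical E-box was itself found near the start sites of several members. RefSeq promoters on GRCm38.p6, of 250 bases before to 50 bases after a start site, were matched for 7 of the 8 members, and 4 of the 7 promoters held CACGTG, which reads the same on both strands. Over all 32851 promoters of this length, 7.15% held it, and these include promoters of genes that were not tested here. Among tested genes with a promoter sequence, 990 held it and 7151 did not. The 4 sites are shown because they place the network's own binding sequence at the genes of its partner and antagonists. The E-box is in capitals, with 12 bases on either side, read 5′ to 3′ on the gene's strand.
Max: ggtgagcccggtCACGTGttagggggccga
Mlx: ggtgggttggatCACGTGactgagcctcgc
Mnt: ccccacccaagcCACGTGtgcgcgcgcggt
Mxd4: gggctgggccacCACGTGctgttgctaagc
The Max stretch lies at chr12:76962234-76962263 on the minus strand and the Mlx stretch at chr11:101087238-101087267 on the plus strand. The Mnt stretch lies at chr11:74830789-74830818 on the plus strand and the Mxd4 stretch at chr5:34187912-34187941 on the minus strand. Counted from the RefSeq start site as position 1, the first base of the E-box was at -3 in Max, -40 in Mlx, -123 in Mnt and -219 in Mxd4. These start sites can differ from the ends of the genes given below, which are from GENCODE. The promoters of Mxd1, Mxd3 and Mga did not contain these letters within the window. A match of letters is a description of the window, and binding was not measured.

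Assigned counts numbered 9985943 to 12830485 per library. The 2 libraries numbered 1 had 11696 and 11977 genes with a count against 13564 to 13801 in the other 3. Log2 CPM (CPM is a gene's reads scaled to a common library total) was correlated across genes between libraries. Pairs with at least 1 library numbered 1, the pair of these 2 included, correlated at 0.907 to 0.936, against 0.973 to 0.977 among the other 3. These 2 libraries therefore stand apart, and the main results are given with and without them. The T cell genes Cd3e and Cd8a, at 998 to 1264 and 1493 to 1951 CPM by library totals, were high in every library, while Cd4 stood at 0 to 1.30 CPM. By library totals Mki67, a gene of dividing cells, stood at 29.9, 438 and 275 CPM in Control IgG replicates 1, 2 and 3. It stood at 65.2 and 277 CPM in anti-PD-L1 replicates 1 and 2, and was thus lowest in the libraries numbered 1. Transcripts of 9 melanoma genes summed to 6.94, 384 and 119 CPM in Control IgG replicates 1, 2 and 3 and to 50.3 and 131 CPM in anti-PD-L1 replicates 1 and 2. Those of 9 macrophage and monocyte genes summed to 93.8 to 219 CPM in the Control IgG group and to 88.9 and 149 CPM in the anti-PD-L1 group. In sorted bulk samples a smaller share of cells with a transcript and less of it per cell cannot be told apart.

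Levels below are CPM scaled by the TMM factors unless said otherwise, and fold changes, positive where anti-PD-L1 was higher, are on the log2 scale from edgeR's quasi-likelihood test. In that test 0 of the 8 members had an adjusted p under 0.05, where the share of all 11299 tested genes called was 0.0% higher and 0.0% lower. DESeq2 and limma-voom also called 0 members. At an unadjusted p under 0.05 in edgeR there was 1 member, Mxd1, which was higher, against 1.19% of all tested genes higher and 0.947% lower. The fold change was above 0 for 6 members and below 0 for 2, where the shares of all tested genes were 48.1% and 51.9%. The median fold change of the members was 0.07, against -0.02 over all tested genes.

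Myc, the activator of the network, lies on GRCm38 chromosome 15 from 61985391 to 61990374 on the plus strand. It stood at 745, 469 and 525 CPM in Control IgG replicates 1, 2 and 3 and at 229 and 534 CPM in anti-PD-L1 replicates 1 and 2. Anti-PD-L1 replicate 1 was thus below every control library, while replicate 2 lay within the controls, so the groups overlapped. The control mean was 580 ± 146 CPM (SD, n = 3) and the anti-PD-L1 mean 381 ± 216 CPM (SD, n = 2). The fold change was -0.60 ± 0.39 (SE), with an edgeR adjusted p of 0.9999. The deposited counts behind these values were 8341, 5025 and 6851 in the controls and 2466 and 7175 after anti-PD-L1. Without Control IgG replicate 1 the fold change was -0.38 ± 0.40. Without anti-PD-L1 replicate 1 it was -0.12 ± 0.36, without replicate 2 it was -1.32 ± 0.36, and without both libraries numbered 1 it was 0.09 ± 0.21. A fit with a single anti-PD-L1 library takes its SE from the spread of the controls. Such an SE is therefore not comparable with that from all libraries. The size of the Myc difference therefore depended on the libraries numbered 1, and its sign turned without both. Anti-PD-L1 replicate 1 had fewer melanoma and macrophage transcripts than anti-PD-L1 replicate 2, and Control IgG replicate 1, with the most Myc, had the fewest melanoma and the most macrophage transcripts of all 5. Their part in the Myc values was not tested.

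Max, the partner that MYC and its antagonists share, varied little between libraries. It is on chromosome 12 from 76937269 to 76962201 on the minus strand. Its levels were 36.2, 30.8 and 26.6 CPM in the controls and 35.1 and 31.8 CPM after anti-PD-L1. Both anti-PD-L1 values lay inside the range of the controls. The fold change was 0.10 ± 0.28.

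Mxd1, an antagonist that pairs with MAX and recruits the SIN3 corepressor, was the member with the clearest separation. The gene spans chromosome 6 from 86647042 to 86669161 on the minus strand. It stood at 51.7, 36.7 and 42.1 CPM in the controls and at 75.6 and 79.4 CPM after anti-PD-L1. Both anti-PD-L1 libraries were above all 3 controls, and Mxd1 was the only member whose groups did not overlap, where 7.74% of all tested genes had both anti-PD-L1 libraries above and 9.58% had both below. The fold change was 0.83 ± 0.26, or 1.78-fold, with a control mean of 43.5 ± 7.62 CPM (SD, n = 3) and an anti-PD-L1 mean of 77.5 ± 2.67 CPM (SD, n = 2). Its unadjusted p in edgeR was 0.0120, rank 26 of the 11299 tested genes, and its adjusted p was 0.9999, which does not pass. Over the 11 alternative settings the fold change ran from 0.73 to 1.00, and the adjusted p did not pass in any of them. Without both libraries numbered 1 it was 1.00 ± 0.28.

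**Figure D1:**
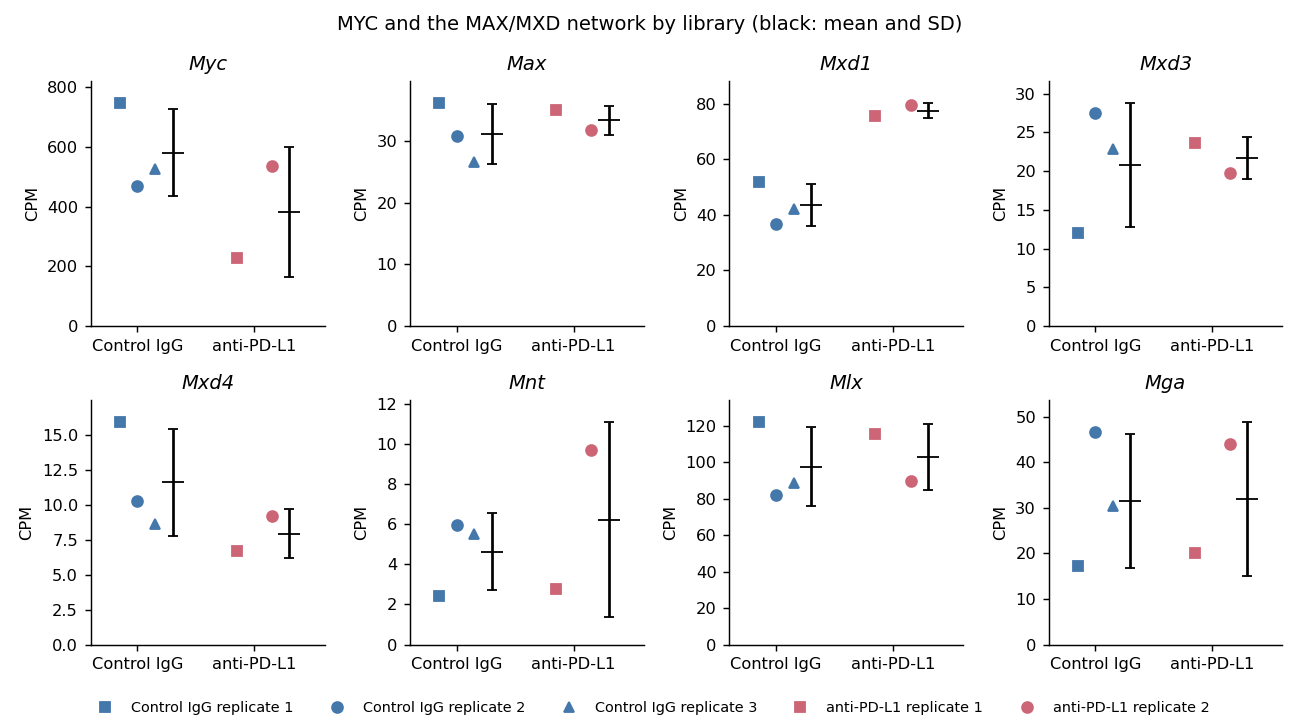
Level of each network gene in CPM (TMM-scaled, linear axes from 0) in the 3 Control IgG libraries (blue) and 2 anti-PD-L1 libraries (red), with the marker shape giving the replicate number and black lines the mean and SD. Mxd1 is the panel in which both red points, at 75.6 and 79.4 CPM, lie above all blue points, and in the Myc panel anti-PD-L1 replicate 1, at 229 CPM, lies below the other 4 libraries.

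The other MXD genes did not show this separation. Mxd3, an MXD gene known for expression in dividing cells, is on chromosome 13 from 55325168 to 55329823 on the minus strand. It stood at 12.0, 27.5 and 22.8 CPM in the controls and at 23.6 and 19.7 CPM after anti-PD-L1, with the anti-PD-L1 values inside the controls' range and Control IgG replicate 1 lowest. Its fold change was 0.06 ± 0.41, and -0.36 ± 0.33 without both libraries numbered 1. Mxd4, an antagonist that pairs with MAX, lies on chromosome 5 from 34173883 to 34187720 on the minus strand and stood at 15.9, 10.3 and 8.58 CPM in the controls and 6.67 and 9.16 CPM after anti-PD-L1. Replicate 1 after anti-PD-L1 was below every control and replicate 2 was between them. The fold change was -0.55 ± 0.45, and -0.05 ± 0.38 without both libraries numbered 1.

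Mnt and Mga, the larger antagonists, were lowest in the libraries numbered 1, and their groups overlapped. MNT is a broadly expressed MAX partner that bears its own SIN3-binding domain, and MGA joins MAX in a Polycomb-type repressor complex. Mnt, on chromosome 11 from 74830920 to 74845725 on the plus strand, stood at 2.41, 5.97 and 5.52 CPM in the controls and at 2.78 and 9.68 CPM after anti-PD-L1. Mga, on chromosome 2 from 119897228 to 119969581 on the plus strand, stood at 17.3, 46.8 and 30.5 CPM in the controls and at 20.0 and 43.9 CPM after anti-PD-L1. For both genes the 2 lowest libraries of the 5 were the ones numbered 1, one from each group. The fold changes were 0.43 ± 0.71 for Mnt and 0.02 ± 0.48 for Mga. Without both libraries numbered 1 they were 0.74 ± 0.40 and 0.18 ± 0.31, and without anti-PD-L1 replicate 2 they were -0.72 and -0.64. The lowest Mnt library held 27 counts, so counting error alone is large there.

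Long genes in general were lower in the libraries numbered 1. Exon length was taken as the merged exons of coding transcripts and was matched for 87.5% of the tested genes. Among the 644 tested genes with over 8 kb of exon, a class that includes Mga at 13.9 kb, the median log2 CPM relative to each gene's mean was -0.40 in the Control IgG library numbered 1 and -0.34 in the anti-PD-L1 library numbered 1. It was 0.33, 0.13 and 0.32 in Control IgG replicates 2 and 3 and anti-PD-L1 replicate 2. In the 3057 genes of 4 to 8 kb, which include Mxd1 and Mnt, it was -0.22 and -0.05 in the libraries numbered 1 and 0.11, 0.12 and 0.16 in the others. Among the 3893 genes of 2 to 4 kb, which include Myc and Mxd4, the 5 medians lay between -0.04 and 0.07. Short genes differed too. In the 1887 genes of 1 to 2 kb, which include Max, Mxd3 and Mlx, the median was 0.18 in Control IgG replicate 1. In the other libraries it lay between -0.08 and 0.02. The part of gene length in the values of the members and of the target genes described below was not tested.

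**Figure D2:**
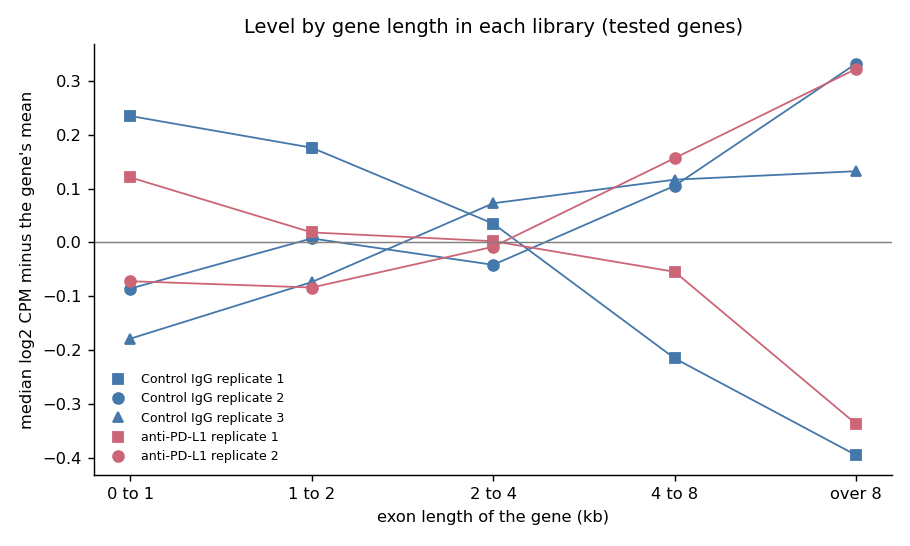
Median log2 CPM relative to each gene's own mean over the 5 libraries (vertical axis) for tested genes grouped by exon length in kb (horizontal axis), with 1 line per library. The lines of the 2 libraries numbered 1 (squares) end at -0.40 and -0.34 in genes over 8 kb, and the other 3 lines end between 0.13 and 0.33.

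Mlx, the centre of the parallel MLX branch, pairs with the glucose-responsive factors MLXIP and MLXIPL and with some MXD proteins and MNT. It lies on chromosome 11 from 101087277 to 101092207 on the plus strand. It stood at 122, 81.9 and 88.4 CPM in the controls and 116 and 89.8 CPM after anti-PD-L1. Both anti-PD-L1 libraries were inside the control range, and the fold change was 0.08 ± 0.27. Exons of Mlx overlap Psmc3ip on the opposite strand, those of Mxd3 overlap Prelid1 and those of Mxd4 overlap Gm42846. The library chemistry does not mark strand, so reads of these overlaps cannot be assigned to one gene.

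The extended network holds 5 further genes, and 2 of them passed the filter on low counts. Mlxip, which encodes the glucose-responsive partner of MLX also called MondoA, stood at 62.6, 149 and 143 CPM in the controls and 84.3 and 172 CPM after anti-PD-L1, again lowest in the libraries numbered 1. Mxi1, an MXD family antagonist, had 98, 172 and 147 counts in the controls and 144 and 295 counts after anti-PD-L1. Their fold changes were 0.11 ± 0.44 and 0.56 ± 0.41, and the groups overlapped for each. Mycn, a MYC paralog, had between 0 and 0.401 CPM by library totals, and Mycl and Mlxipl had 0 counts in every library. By the same totals 3 counts, taken as the limit of detection, equal 0.234 to 0.300 CPM. Myc was thus the MYC paralog with appreciable counts in these libraries.

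Levels of different genes were compared per kb of exon. In the controls Myc stood highest at 237 ± 59.7 CPM per kb (SD, n = 3), followed by Mlx at 49.0 ± 10.9, Max at 15.9 ± 2.46, Mxd3 at 15.7 ± 6.02, Mxd1 at 9.33 ± 1.63, Mxd4 at 2.98 ± 0.988, Mga at 2.26 ± 1.06 and Mnt at 1.01 ± 0.422. In this order Max and Mxd3, Mxd3 and Mxd1, and Mxd4 and Mga had overlapping spreads, and the order within each pair changed between control libraries. The spreads of Mga and Mnt overlapped too, but Mga was above Mnt in every library. In the controls Mga stood at 1.24, 3.36 and 2.19 CPM per kb and Mnt at 0.526, 1.30 and 1.20. After anti-PD-L1 Myc stood at 156 ± 88.4 CPM per kb (SD, n = 2) and Mlx at 51.7 ± 9.19. Max at 17.1 ± 1.20, Mxd1 at 16.6 ± 0.573 and Mxd3 at 16.3 ± 2.07 then lay within each other's spread. Mga at 2.30 ± 1.21, Mxd4 at 2.04 ± 0.453 and Mnt at 1.36 ± 1.06 followed with overlapping spreads, and Mnt was the lowest of these in each anti-PD-L1 library.

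The transcript ratio of Myc to Mxd1 was lower in both anti-PD-L1 libraries, a pair chosen after its values were seen and given as a description. Per kb it was 27.5, 24.4 and 23.8 in the controls and 5.76 and 12.8 after anti-PD-L1, with no overlap between the groups. In anti-PD-L1 replicate 1 both a low Myc and a high Mxd1 entered the ratio, and in replicate 2 only Mxd1 stood outside the controls. Against the sum of the 5 antagonists, the Myc ratio was 11.7, 5.34 and 6.74 in the controls and 2.47 and 5.53 after anti-PD-L1, and here the groups overlapped. Mxd1 made up 42.7%, 21.9% and 28.4% of that sum in the controls and 42.9% and 43.1% after anti-PD-L1. These are ratios of RNA, and protein was not measured.

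**Figure D3:**
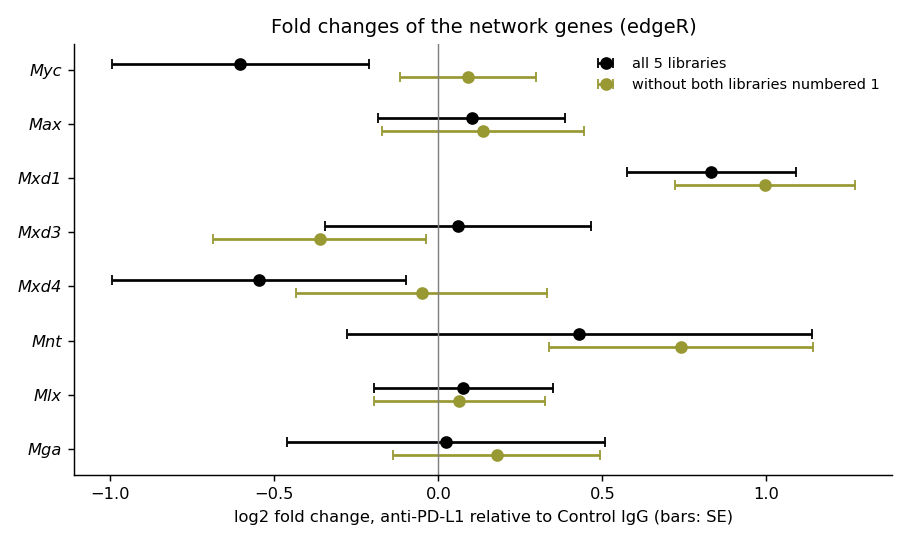
Log2 fold change of each network gene, anti-PD-L1 relative to Control IgG, with its SE from edgeR, in all 5 libraries (black) and without both libraries numbered 1 (olive). Mxd1 stands at 0.83 and 1.00, while Myc stands at -0.60 and 0.09. The olive fits hold a single anti-PD-L1 library, so their SE comes from the spread of the controls.

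Genes that MYC is known to activate were listed by role, 96 in all, and every one was tested. In both anti-PD-L1 libraries most of them stood below the controls. Relative to the control mean the median target stood at -0.53 on the log2 scale in replicate 1 and at -0.31 in replicate 2. Of the 96, 84 had a fold change below 0, against 51.9% of all tested genes. Both anti-PD-L1 libraries lay below all 3 controls for 47 targets and above them for 0, where the shares of all tested genes were 9.58% and 7.74%. The median fold change was -0.40, against -0.02 over all tested genes, and -0.27 without both libraries numbered 1. None of the 96 passed an adjusted p of 0.05 in edgeR, DESeq2 or limma-voom. At an unadjusted p under 0.05 in edgeR 13 were lower and 0 higher, against 0.947% and 1.19% of all tested genes. Dropping Control IgG replicates 1, 2 and 3 in turn gave 8, 7 and 11 targets at that p. The matching counts over all tested genes were 219 of 11175, 123 of 11065 and 241 of 11107. When anti-PD-L1 replicate 1 was dropped, the median target had a fold change of -0.33, against -0.0008 over all tested genes. Dropping anti-PD-L1 replicate 2 instead gave -0.55, against -0.06. Fits that keep a single anti-PD-L1 library are described here by fold change only. An SE given elsewhere for such a fit rests on the spread of the controls. Values of Srm, Ncl, Hspd1 and Ung and of related lists in these data were known when the lists were written, so these counts are not independent evidence.

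All 30 nucleolus and ribosome assembly genes had a fold change below 0, and the median was -0.57. Both anti-PD-L1 libraries lay below all controls for 22, or 73.3%, against 9.58% of all tested genes. The median was -0.33 without both libraries numbered 1 and -0.89 without anti-PD-L1 replicate 2. Ncl, which encodes the nucleolar protein nucleolin, stood at 1572, 1386 and 1276 CPM in the controls and 606 and 943 CPM after anti-PD-L1, a fold change of -0.87 ± 0.28. Rrp9, a component of the U3 small nucleolar RNP, stood at 142, 125 and 117 CPM in the controls and 66.1 and 90.1 CPM after anti-PD-L1, a fold change of -0.71 ± 0.26. Pa2g4, a growth-linked nucleolar protein, stood at 544, 434 and 444 CPM against 296 and 311 CPM, a fold change of -0.64 ± 0.24. For these 3 genes the groups did not overlap. Among the 3 libraries not numbered 1, 22 of the 30 were below both controls after anti-PD-L1, where 31.7% of all tested genes were.

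Of the 16 polyamine and nucleotide synthesis genes, 15 had a fold change below 0, with a median of -0.46. Both anti-PD-L1 libraries lay below all controls for 10, or 62.5%, against 9.58% of all tested genes. The median was -0.30 without Control IgG replicate 1 and -0.29 without both libraries numbered 1. Srm, the spermidine synthase, stood at 313, 302 and 263 CPM in the controls and at 92.2 and 184 CPM after anti-PD-L1. Odc1, which encodes the first enzyme of polyamine synthesis and is a textbook MYC target, stood at 325, 351 and 172 CPM in the controls and 125 and 280 CPM after anti-PD-L1, and its groups overlapped. The fold changes were -1.08 ± 0.33 for Srm and -0.48 ± 0.42 for Odc1. Shmt2, a mitochondrial serine and folate enzyme, had -0.72 ± 0.26 and Impdh2, which makes guanine nucleotides, -0.66 ± 0.27, each with no overlap between the groups.

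The 13 mitochondrial and chaperone genes all had a fold change below 0, with a median of -0.44, or -0.28 without both libraries numbered 1. Both anti-PD-L1 libraries lay below all controls for 7, or 53.8%, against 9.58% of all tested genes. C1qbp, a mitochondrial matrix protein, had -0.74 ± 0.26, the chaperonin Hspd1 -0.68 ± 0.30, and Tbrg4, which acts on mitochondrial RNA, -0.53 ± 0.24. The 11 translation genes likewise all had a fold change below 0, with a median of -0.36, and 5 of them, or 45.5%, lay below in the same way. The methyltransferase Prmt3 had -0.74 ± 0.38, the phenylalanyl-tRNA synthetase subunit Farsa -0.47 ± 0.25, and Aimp2, a scaffold of the tRNA synthetase complex, -0.41 ± 0.26.

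Nutrient uptake and glycolysis genes lay on both sides of 0. Of 15 tested, 8 had a fold change below 0 and 7 above, and the median was -0.02. The share below 0 was 53.3%, against 51.9% of all tested genes. For 1 gene, or 6.67%, both anti-PD-L1 libraries lay below all controls, against 9.58% of all tested genes. That gene was Slc7a5, which encodes the large neutral amino acid transporter LAT1, at 28.2, 30.8 and 19.0 CPM in the controls and 10.8 and 18.6 CPM after anti-PD-L1, a fold change of -0.82 ± 0.39. Ldha, the lactate dehydrogenase, stood at 5002, 3822 and 3772 CPM in the controls and 4838 and 3051 CPM after anti-PD-L1, a fold change of -0.09 ± 0.29. Hexokinase Hk2 had -0.50 ± 0.38 and the arginine transporter Slc7a1 -0.24 ± 0.28, both with overlap. Without both libraries numbered 1 the median of this list was -0.21, with 12 of 15 below 0. Cell cycle and replication genes had a median of -0.20 over 11, with 7 below 0, or 63.6%, against 51.9% of all tested genes. Both anti-PD-L1 libraries lay below all controls for 2, or 18.2%, against 9.58% of all tested genes. Cdk4, a kinase of G1 phase, was 1 of these 2, at 455, 402 and 394 CPM in the controls and 313 and 335 CPM after anti-PD-L1, a fold change of -0.37 ± 0.23. Ccnd2, a D-type cyclin, had -0.38 ± 0.28 and the uracil glycosylase Ung -0.50 ± 0.30, both with overlap.

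**Figure D4:**
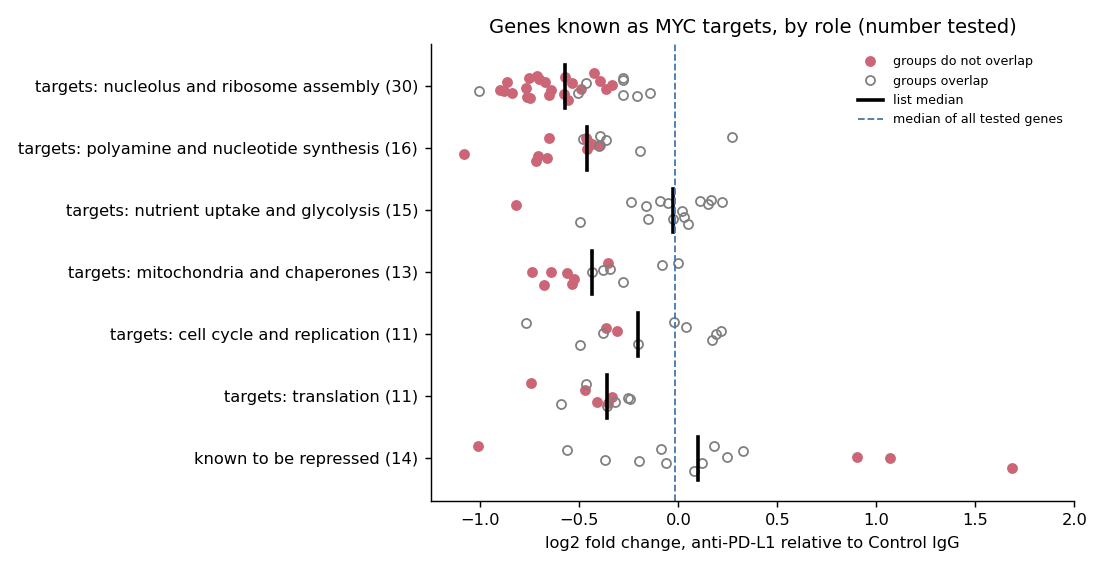
Log2 fold change of each gene (points) in 6 lists of MYC targets and in the list of genes known to be repressed by MYC, with filled points where both anti-PD-L1 libraries lay outside all Control IgG libraries, black bars at list medians and a dashed line at the median of all tested genes. The nucleolus and ribosome assembly points all lie below 0 around a median of -0.57, while nutrient uptake and glycolysis points lie on both sides of 0.

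The E-box also occurs in front of target genes. Of 85 targets with a promoter sequence, 25 had CACGTG in at least 1 promoter, 29.4%, against 8.09% of all 27025 genes with one. Those 27025 include genes that were not tested here. Among tested genes with a promoter sequence, 990 held the E-box and 7151 did not. An example from each of 2 roles is shown, again with the E-box in capitals: a Cdk4 site, 1 of 4 in that promoter, and the site of Nop2, a nucleolar RNA methyltransferase.
Cdk4: aagggtgaagatCACGTGtccagaacgtcc
Nop2: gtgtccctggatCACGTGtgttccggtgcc
The Cdk4 stretch lies at chr10:127063512-127063541 and the Nop2 stretch at chr6:125131811-125131840, both on the plus strand of GRCm38.p6. Nop2 stood at 152, 113 and 152 CPM in the controls and 81.9 and 105 CPM after anti-PD-L1, with no overlap, and was picked for its sequence after its values were seen.

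In anti-PD-L1 replicate 2 Myc was at 534 CPM, within the controls, while 61 of the 96 targets were below every control, 63.5%, against 20.9% of all tested genes in that library. In anti-PD-L1 replicate 1, where Myc was below every control, 67 targets were, 69.8%, against 30.7% of all tested genes. Mxd1 was above every control in both libraries. The relation between these levels across libraries was not tested.

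Genes that MYC is known to repress went both ways. Of 15 listed, 14 were tested, 8 had a fold change above 0 and 6 below, with a median of 0.10. Without both libraries numbered 1 the median was 0.41, with 12 above 0 and 2 below, and without anti-PD-L1 replicate 2 it was -0.37. The groups did not overlap for 4 of them, 3 higher after anti-PD-L1 (21.4% of 14, against 7.74% of all tested genes) and 1 lower (7.14%, against 9.58%). The lower one was Gadd45a, at under 2 CPM in every library. The 3 higher ones were the cyclin-dependent kinase inhibitors Cdkn1a and Cdkn2b and the cyclin G2 gene Ccng2. Cdkn1a stood at 20.6, 41.1 and 24.4 CPM in the controls and 54.1 and 66.1 CPM after anti-PD-L1, a fold change of 1.07 ± 0.35. Cdkn2b stood at 2.77, 1.77 and 3.22 CPM against 12.2 and 4.47 CPM, a fold change of 1.68 ± 0.65, and Ccng2 had 0.90 ± 0.39.

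Cofactors, corepressors and turnover genes of the network's proteins were listed too. Of 12 MYC cofactors, 10 had a fold change below 0, with a median of -0.21, which became -0.14 with Control IgG replicate 2 left out and -0.43 with anti-PD-L1 replicate 2 left out. For 3 of them, 25.0%, both anti-PD-L1 libraries lay below all controls, against 9.58% of all tested genes: Ruvbl2, an ATPase of chromatin complexes, at -0.47 ± 0.25, its partner Ruvbl1 at -0.43 ± 0.25, and Wdr5, a histone methylation adaptor, at -0.35 ± 0.25. Of 10 genes in the corepressor list, 8 were below 0 with a median of -0.18, and the groups overlapped for all 10. The list also held Zbtb17, at -0.16 ± 0.42, which encodes a DNA-binding partner of MYC and not a SIN3 complex subunit. Hdac2, a histone deacetylase, had -0.39 ± 0.32, and the SIN3 complex subunits Sap30 and Sap18 had -0.31 ± 0.37 and -0.21 ± 0.30. Of 12 genes of MYC protein turnover, 8 were below 0 with a median of -0.25, or -0.07 without both libraries numbered 1 and -0.01 without Control IgG replicate 2. Usp36, a nucleolar deubiquitinase that stabilises MYC, had -0.81 ± 0.38, at 46.7, 61.7 and 64.3 CPM in the controls and 20.0 and 45.7 CPM after anti-PD-L1. Gsk3b, a kinase that marks MYC for degradation, had 0.30 ± 0.25 and Btrc, a ubiquitin ligase subunit, -0.46 ± 0.42.

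Genes with a pattern over the 5 libraries most like that of a member were sought among 7633 genes by the root mean square difference of centred log2 CPM. Among the nearest to Myc were Taf4b at 0.14 and Nsun4 at 0.14. Nearest to Mxd1 were Gem at 0.069, Spty2d1 at 0.11 and Ypel5 at 0.13, and Gem stood at 128, 95.1 and 113 CPM in the controls and 193 and 184 CPM after anti-PD-L1. Nearest to Mxd4 were Nubpl at 0.055, H2-Q10 at 0.055 and Tgs1 at 0.065. With 5 libraries and many genes, near patterns arise readily, and no p is given.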

How the data were processed

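The values were whole-number read counts per gene deposited by the authors without normalization. The tools TopHat and HTSeq and build mm10 are named, per the submitters' processing notes. For versions, annotation, strand setting and multi-mapped reads, nothing is given in the sources used. RNA of 5000 to 30000 sorted cells was amplified with 8 and then 12 PCR cycles by a modified Smart-seq2 protocol, per the labels' protocols, which marks neither strand nor molecule, so the floor of 3 counts covers counting error only. The 5 counter lines, of which reads without a feature made up 7.46% to 15.2% and ambiguous reads 1.38% to 1.51% of counts, were left out.

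The test was that of edgeR 4.0.16, run under R 4.3.3 (quasi-likelihood F-test, two-sided, TMM, default filterByExpr with a minimum count of 10, Benjamini-Hochberg over 11299 genes, threshold 0.05), after the code was tested on simulated data. The SE is the fold change divided by the square root of F, and log2 CPM used a prior count of 2. DESeq2 1.42.0, limma-voom 3.58.1, other scaling, no filter, a replicate block and left-out libraries were alternatives. The labels name no separate cultures, so p-values reflect only variation among pooled libraries, which may be technical.

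The members, the lists and the naming rule (the members, the extended network, the 3 genes of smallest p per list, any past the threshold, and Ncl, Odc1, Srm, Cdk4, Ldha and Slc7a5) were chosen with earlier results of these data known. Coordinates are GENCODE vM21 on GRCm38, which mm10 denotes. Mycl, Pkm, Adgre1 and Hbb-bs were matched by older symbols, and the marker symbols Trac and Hbb-bt were not matched. A gene that the naming rule picks is not reported here.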

Additional observations from a re-analysis of the deposited data

How the results depend on the processing

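Over 11 alternatives 0 of the 8 members and 0 of the 96 targets passed an adjusted p of 0.05. Among all genes 0 passed in the main fit. Without the low-count filter edgeR called 5, and DESeq2 called 4, none of them a member or a listed target. Mxd1 stayed above 0 and Mxd4 below 0 in all 11. The Myc fold change was 0.091 without both libraries numbered 1 and ran from -1.32 to -0.12 with 1 library left out. In that setting Mxd3 was at -0.36. With 1 library left out, 5 members crossed 0: Max ran from -0.0022 to 0.22, Mxd3 from -0.22 to 0.32, Mnt from -0.72 to 1.06, Mlx from -0.12 to 0.27 and Mga from -0.64 to 0.48. So did 5 list medians: the extended network from -0.15 to 0.70, nutrient uptake and glycolysis from -0.22 to 0.13, cell cycle from -0.25 to 0.06, corepressors from -0.21 to 0.03, and genes repressed by MYC from -0.37 to 0.40. The cause was not tested. The median of all 96 targets ran from -0.55 to -0.27 over the 11. A fit that leaves a single anti-PD-L1 library takes its spread from the controls.

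The replicate numbers are in the labels, which do not say that they mark a shared day or batch. With the replicate block Myc had -0.76 ± 0.45 and Mxd1 0.83 ± 0.27, and 0 genes passed. In that fit 28 targets and 605 of all 11299 tested genes had an unadjusted edgeR p under 0.05. Without the low-count filter 21 targets and 374 of the same 11299 genes did. In the main fit 13 targets and 241 of all tested genes did. Deviations from the group means correlated across genes at 0.33 for the libraries numbered 1 and at 0.37 for those numbered 2, and with 2 anti-PD-L1 libraries these mirror each other.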

Other observations

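Targets were split by the E-box in a promoter. The 25 targets with CACGTG had a median of -0.39, all 25 had a fold change below 0, and both anti-PD-L1 libraries lay below all controls for 13 of them, 52.0%. The 60 targets with a promoter sequence but without these letters had a median of -0.42, 50 had a fold change below 0, and 30 of them lay below in the same way, 50.0%. Over all tested genes with a promoter sequence the shares were 14.7% of 990 genes with the E-box and 9.36% of 7151 without it. These shares are descriptions, and the difference between them was not tested.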
